A study of Homo sapiens with 36 samples.

Results

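The regions described here are the stretches of the genome where a peak of the DNA-binding protein CTCF was called in control cells (siNC) and in none of 5 knockdowns of NuRD subunits. They were chosen by the calls themselves. Overlapping or touching peaks of 6 deposited lists on chromosomes 1 to 22 and X were merged, and a region was kept if it held siNC peaks and no peak of any knockdown list. This left 2882 siNC-only regions out of 54382 merged regions. They made up 8.02% of the 35931 regions with a siNC peak (exact Clopper-Pearson 95% interval 7.74 to 8.31). The other 33049 siNC regions held a peak of at least 1 knockdown list. Taken singly, 35.7% of siNC regions had no peak in siCHD3, 41.7% none in siCHD4, 21.0% none in siCHD5, 34.5% none in siMBD2 and 38.3% none in siMBD3. These shares and the count of siNC-only regions follow from the rule and are given as a description.

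CTCF is a zinc-finger protein that holds chromatin loops at their anchors and marks insulators. NuRD is a chromatin complex that slides nucleosomes and removes histone acetyl groups. CHD3, CHD4 and CHD5 are alternative ATP-driven motors of the complex. MBD2 and MBD3 are alternative subunits of the methyl-CpG-binding-domain family, of which MBD2 binds methylated CpG and mammalian MBD3 largely does not. CTCF does not hold all its sites equally, and a weakly held site can pass or miss a peak threshold.

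The study used HEK293T, a human embryonic kidney line that carries the SV40 large T antigen. Cells were transfected with siRNA aimed at a CHD motor (siCHD3, siCHD4, siCHD5), with siRNA aimed at an MBD subunit (siMBD2, siMBD3), or with a control siRNA (siNC). Chromatin was immunoprecipitated with a CTCF antibody and sequenced beside input, giving 18 immunoprecipitates and 18 inputs, 3 of each per condition. Each deposited list pools the 3 immunoprecipitates of 1 condition. Replicate spread could therefore not be measured, and no test between conditions was made. Intervals cover counting error only. Levels of the targeted proteins were not analysed here, and nor were genes, motifs or sequences at the regions. Positions are hg19, 1-based.

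The lists differed in coverage. The lowest background in a list, in fragments per base, stands for its coverage of the genome. Of the knockdown lists, siMBD3 had the least (0.374), then siCHD3 (0.445), siMBD2 (0.640), siCHD4 (1.06) and siCHD5 (1.95), all under the 2.96 of siNC. Coverage and knockdown cannot be told apart in pooled lists.

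Other lists also held regions of their own. The 2882 siNC-only regions (8.02%) stood beside 8009 regions called only in siCHD3, which were 23.4% of that list's regions (interval 22.9 to 23.8). Regions called only in siMBD3 numbered 2007 (7.85%, interval 7.52 to 8.19). There were 1581 in siCHD5 alone (5.04%), 1432 in siCHD4 alone (5.73%) and 1297 in siMBD2 alone (5.00%). The intervals of the siNC and siMBD3 shares overlapped. Regions of 1 list had a lower median fold than the rest of that list in all 6 lists: the median fold was 4.06 in siNC-only regions against 5.34 in the other siNC regions, and 4.48 against 6.84 in siCHD3. The median −log10 q was 6.69 in siNC-only regions and 2.54 to 5.86 in the regions called in a single knockdown list. The order of the lists was not stable. When every list was reduced to its 25358 peaks of smallest p, the length of the shortest list, siNC-only regions numbered 616, the fewest of the 6 lists, against 807 in siCHD5 and 2692 in siCHD3. Of those 616 regions, 320 were siNC-only in the full lists. The cut takes the peaks of largest p, more from siNC (36270 peaks) than from any other list and none from siCHD4. The siCHD3 list (34319 peaks) and the siCHD5 list (31451) were also cut.

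**Figure D1:**
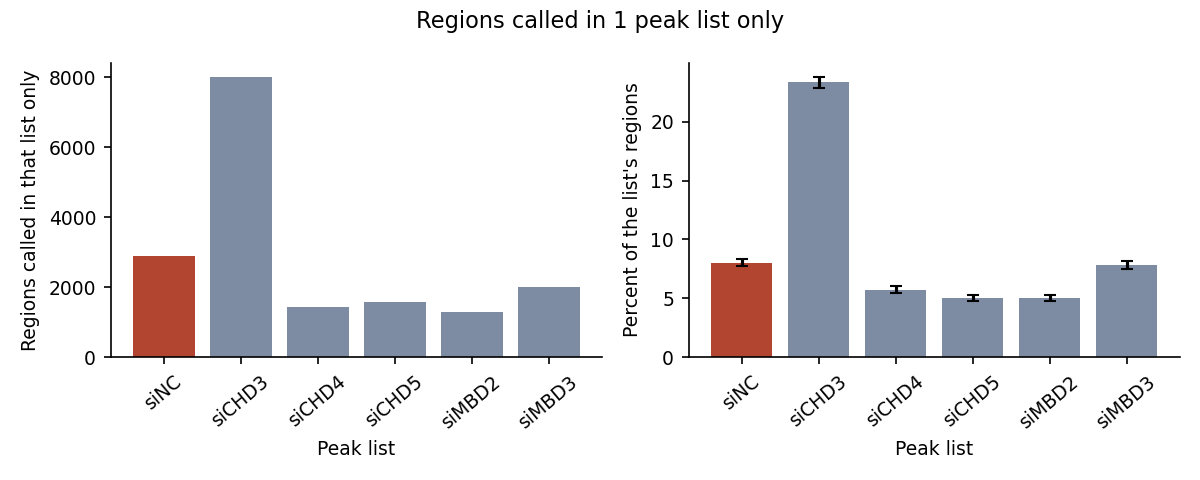
Number of regions called in a single list (left) and their percent of that list's regions with exact 95% intervals (right), siNC in red and the knockdown lists in grey. The 2882 siNC-only regions are fewer than the 8009 of siCHD3 and more than the 1297 to 2007 of the others.

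siNC-only regions were small, low peaks in the control. Their siNC fold enrichment, the authors' ratio of the summit over local background, ranged over 1.31 to 11.9 with quartiles of 3.42, 4.06 and 4.89. The other siNC regions had quartiles of 4.33, 5.34 and 6.59. The ranges between the quartiles of the sets overlapped in fold. They did not overlap in summit pileup, the number of fragments stacked at the summit, with quartiles of 18, 23 and 29 in siNC-only regions and of 39, 64 and 97 in the other siNC regions. Local background was also lower, with a median of 4.62 in siNC-only regions and 11.0 in the others. At 462 siNC-only regions (16.0%, interval 14.7 to 17.4) it lay within 1% of the lowest background of the list, against 3.04% of the others. siNC-only regions were thus lower in both the stack and the background under it.

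All these values rose step by step with the number of knockdown lists that also called the region. Median siNC fold was 4.06 in siNC-only regions, 4.39 with 1 knockdown list, 4.54 with 2, 4.96 with 3, 5.45 with 4 and 6.10 with all 5. Median pileup was 23 in siNC-only regions, then 30, 37, 50, 70 and 101. Median siNC peak width was 221 bp in siNC-only regions, then 238, 264, 291, 319 and 353 bp. siNC-only regions sat at the low end of this series in each measure. Only 14 of the 2882 (0.486%) had more than 1 summit, against 3.42% of the other siNC regions. The summit lay a median of 5.82% of the peak's width from its middle, against 5.28% in the others. Together siNC-only regions covered 0.676 Mb, with a mean width of 235 bp, against 11.0 Mb and a mean of 333 bp for the siNC peaks of the other regions.

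**Figure D2:**
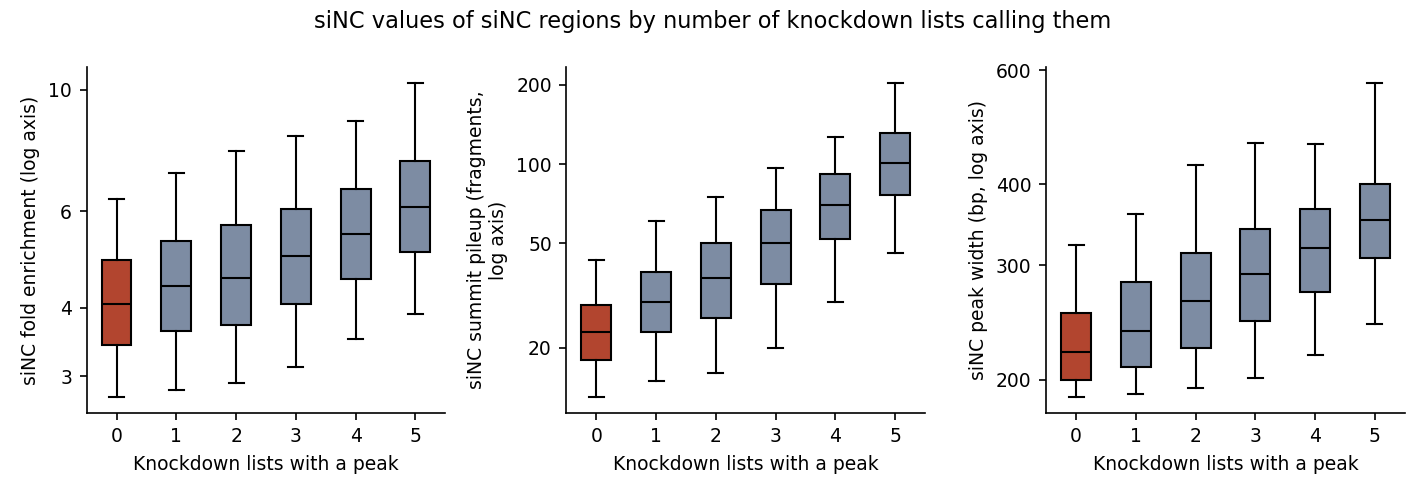
siNC fold, siNC summit pileup and siNC peak width (log axes) of siNC regions by the number of knockdown lists with a peak there; 0 is the siNC-only set, in red. Lines are medians, boxes quartiles and whiskers the 5th and 95th percentiles; medians run up from 4.06 to 6.10 in fold and from 23 to 101 in pileup.

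Ranked by the control's own p, 98.9% of siNC-only regions lay below the median siNC region. The weakest 10% of siNC regions held 1252 of them, 34.8% of that class (interval 33.3 to 36.4), and the next 10% held 856 (23.8%). The strongest 10% held 0 of 3593, whose interval reaches 0.103%, and the 17965 regions above the median held 33. A −log10 q of at least 10 was reached by 730 siNC-only regions (25.3%) against 83.7% of the other siNC regions, and one of at least 20 by 53 against 59.7%. A −log10 q of at least 5 was reached by 1966 siNC-only regions (68.2%).

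Most siNC regions of low pileup were also called in some knockdown. Of siNC regions with a pileup of 15 or less, 351 of 872 (40.3%, interval 37.0 to 43.6) were siNC-only and none was called in all 5 knockdown lists. With a pileup of 21 to 25 the siNC-only share was 29.2% (671 of 2300), and with 31 to 40 it was 10.5% (442 of 4215). It was 0.656% with 51 to 70 (41 of 6247), where 25.1% were called in all 5 lists. Above 100 it was 0.0792% (6 of 7577), against 79.1% in all 5 lists. In each of the 9 pileup classes examined, siNC-only regions were the minority.

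**Figure D3:**
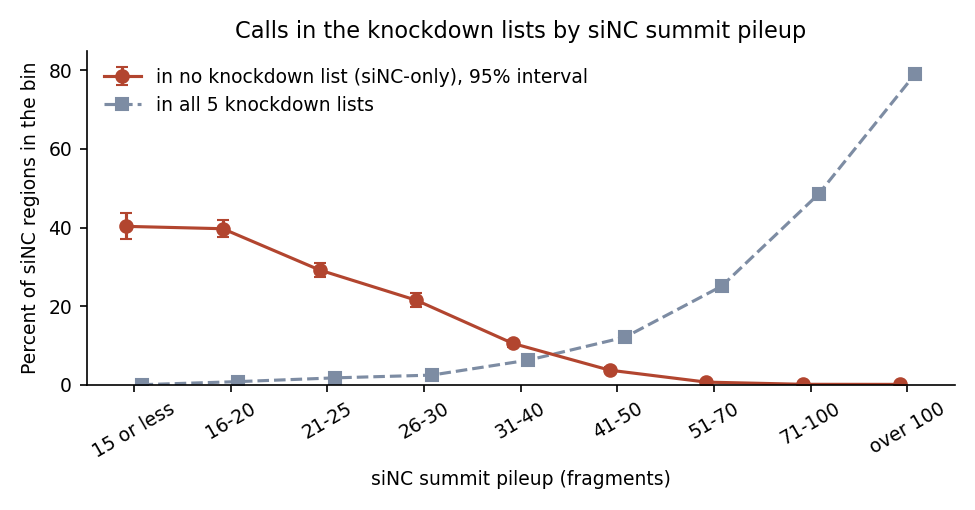
Percent of siNC regions called in no knockdown list (red, with exact 95% intervals) and in all 5 knockdown lists (grey) by siNC summit pileup in fragments. The siNC-only share starts at 40.3% and ends at 0.0792%, while the share in all 5 lists ends at 79.1%.

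To set these pileups beside the coverage of the knockdown lists, the siNC fragments were thinned in proportion to coverage, and a region's chance of a call was its probability of reaching the smallest −log10 p found in the knockdown list. The median chance in siMBD3 was 16.2% for siNC-only regions and 67.3% for the other siNC regions. In siCHD3 it was 24.5% for siNC-only regions and 79.9% for the others. In siMBD2 it was 33.5% for siNC-only regions and 92.8% for the others, in siCHD4 61.3% for siNC-only regions and 99.8% for the others, and in siCHD5 97.2% for siNC-only regions and 100% for the others. Regions outside the set that also lacked a peak in the list in question had higher chances than siNC-only regions. Their median was 39.0% for siMBD3 (10863 regions), 59.4% for siCHD3 (9961), 61.7% for siMBD2 (9516), 96.6% for siCHD4 (12091) and 99.2% for siCHD5 (4653). In siCHD4 and siCHD5, many siNC regions with a high computed chance were not called, inside the set and outside it. In siCHD4, 25940 of the 35931 siNC regions had a chance of at least 90%, yet 14973 had no peak. In siCHD5 these numbers were 33329 and 7535. The computed chances thus ran above the calls in both lists. The median computed chance of siNC-only regions was under 50% in siCHD3, siMBD2 and siMBD3 and over 50% in siCHD4 and siCHD5. The thinned pileups are those of summits that passed the siNC threshold, so they are not independent of the choice of regions. Of the 33329 siNC regions with a chance of at least 90% in siCHD5, 1950 were siNC-only (5.85%). For siCHD4 this was 382 of 25940 (1.47%), for siMBD2 33 of 18096 (0.182%), for siCHD3 3 of 12427 (0.0241%) and for siMBD3 1 of 8272 (0.0121%). A chance of at least 50% in every knockdown list was found at 21421 siNC regions, of which 120 were siNC-only (0.560%). Thinning holds no variation between libraries, so a chance is not an expectation for a repeat experiment. It treats the summit alone, and any width that a called peak must reach was not modelled. It also keeps the siNC ratio of summit to background, although folds differed between lists. Outside the regions of 1 list, the median fold was 5.34 in siNC, 5.13 in siCHD4 and 6.91 in siMBD3. How far coverage accounts for the set was not tested.

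**Figure D4:**
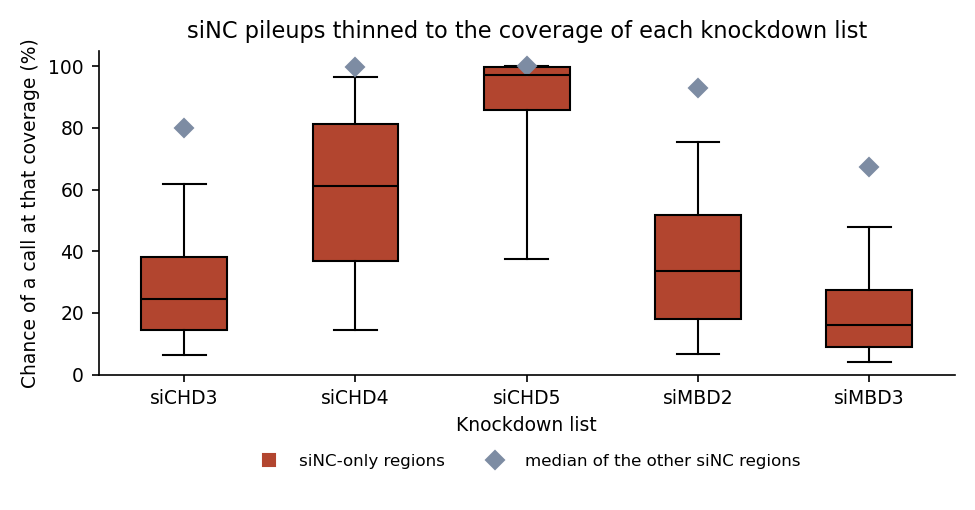
Chance in percent that the siNC pileup of a siNC-only region, thinned to a knockdown list's coverage, passes that list's smallest −log10 p (red boxes with median, quartiles and 5th to 95th percentiles), with the median of the other siNC regions as grey diamonds. Medians of siNC-only regions lie between 16.2% (siMBD3) and 97.2% (siCHD5).

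The siCHD5 list, the knockdown list of highest coverage, set the size of the set more than any other. Without it, 4785 siNC regions would have had no knockdown peak, 13.3% of siNC regions. Leaving out 1 of the other knockdown lists in turn gave 3106 (siCHD4) to 3575 (siCHD3). The nearest class to the siNC-only regions, the 3547 siNC regions called in exactly 1 knockdown list, was likewise mostly paired with siCHD5: 1901 of them (53.6%, interval 51.9 to 55.2). Another 648 (18.3%) had siCHD3 as the only partner, 423 siMBD2, 354 siMBD3 and 221 siCHD4. siNC-only regions had a median siNC pileup of 23 and −log10 q of 6.69. Regions shared with siCHD3 alone were at 23 and 6.53, and those shared with siCHD5 alone at 33 and 10.9. In control strength, siNC-only regions thus lay beside regions shared with siCHD3 alone and below regions shared with siCHD5 alone.

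The strongest siNC-only region by fold was chr3:122018726-122019027, with fold 11.9, a −log10 q of 35.2 and 46 fragments over a background of 2.96. Its nearest knockdown peak lay 40727 bp away, in siMBD3. It was followed by chr19:55979217-55979678 (fold 9.53, pileup 39), chr10:129362271-129362545 (fold 9.44, pileup 42) and chrX:134766340-134766581 (fold 9.29, pileup 38). All 12 regions of highest fold had folds of 8.58 or more and pileups of only 33 to 49. Their widths were 212 to 462 bp, and their pileups lay below the median of 64 of the other siNC regions. At the pileup of each of the 12, the lowest chance of a call in any knockdown list was 61.4% to 84.9%. Among them, chr10:100612445-100612740 (fold 9.09) lay 61477 bp and chr22:28078370-28078678 (fold 8.89) 65030 bp from the nearest knockdown peak, while chr2:85360023-85360234 (fold 8.81) had a siCHD4 peak 1447 bp away.

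Ranked by q the leading regions were mixed in kind. The first was chr16:46403627-46403821, with a −log10 q of 44.0 but a fold of only 1.56, from 1219 fragments over a background of 779. The second was chr3:122018726-122019027, also the first by fold. The third, chr8:46841630-46841819, had fold 2.06 from 390 fragments over 189. The fourth, chr12:54399686-54400005, was a distinct peak of fold 8.10 with 56 fragments, and its lowest chance of a call was 85.2%, the second highest of all siNC-only regions. The fifth, chr3:50232017-50232238, had fold 4.97 from 87 fragments. A group singled out after its values were seen, the 6 siNC-only regions with over 100 fragments, all had low folds, down to 1.31, over backgrounds of 92.9 to 984. Of these 6, 3 lay on chromosome 16 between 46391335 and 46403821, with knockdown peaks 307, 311 and 458 bp away. The 13 siNC-only regions with a background over 20 were 0.451% of the set, against 14.0% of the other siNC regions.

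The widest siNC-only region was chr4:52676376-52677120, 745 bp with 2 summits and fold 2.63, followed by chr4:58029809-58030441, 633 bp with 2 summits and fold 5.45. The narrowest were 186 bp, the shortest length in the siNC list. At the calling threshold itself, the siNC-only regions just inside were chr8:43794619-43794878 (fold 1.83, −log10 q 1.31), chr20:47132198-47132398 (fold 1.62, −log10 q 1.32) and chr8:131314721-131314912 (fold 2.08, −log10 q 1.32). Just outside the set stood siNC regions whose only knockdown peak barely passed. At chr17:43348253-43348497 the siCHD4 peak had a −log10 q of 1.32 and the siNC peak one of 14.7. At chr1:215696905-215697124 the siCHD3 peak had 1.32 and the siNC peak 8.44.

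Most siNC-only regions lay kilobases from any knockdown peak. Touching peaks were excluded by the rule, and the same distance was not measured at the other siNC regions. For scale, the nearest other siNC peak, from a single list, lay a median of 22573 bp from a siNC-only region. The nearest peak of a single knockdown list lay a median of 26304 bp (siCHD5) to 35070 bp (siCHD4) away. Peaks of all knockdown lists together stand closer. The nearest knockdown peak of any list lay a median of 16847 bp away (quartiles 5678 and 40570 bp). It lay within 100 bp at 5 regions, within 500 bp at 93 (3.23%) and within 1 kb at 190 (6.59%, interval 5.71 to 7.56). By list, 122 siNC-only regions had a siCHD3 peak within 1 kb, 97 a siCHD5 peak, 81 a siCHD4 peak, and 75 a siMBD2 or a siMBD3 peak each. The closest was chr4:170641138-170641326 (fold 2.59), 3 bp from a siCHD4 peak of fold 3.23. At chr3:14153647-14153959 a siNC peak of fold 3.06 ended 6 bp before a siCHD4 peak of fold 8.62 began. Touching peaks would have placed both regions outside the set.

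siNC-only regions were spread over all 23 chromosomes. Their share of siNC regions ran between 6.01% on chromosome 21 (19 of 316, interval 3.66 to 9.23) and 9.61% on chromosome 10 (163 of 1696, interval 8.25 to 11.1). Chromosome 10 alone had an interval that left out the genome-wide 8.02%, which is 1 of 23 intervals at the 95% level. The share was 9.58% on chromosome 22 (70 of 731) and 9.54% on chromosome 13 (79 of 828), and 8.07% on X (143 of 1771).

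**Figure D5:**
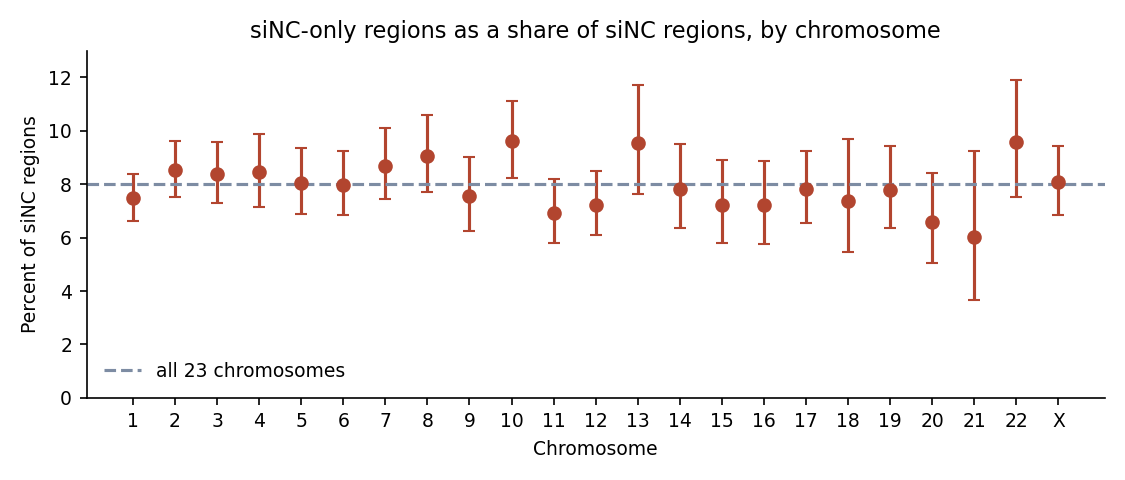
siNC-only regions as a percent of the siNC regions of each chromosome, with exact 95% intervals; the dashed line is 8.02%, the share over all 23 chromosomes. Shares lie between 6.01% (chromosome 21) and 9.61% (chromosome 10).

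They stood slightly farther from other CTCF peaks. The nearest other siNC peak lay a median of 22573 bp from a siNC-only region and 17737 bp from the other siNC regions, and within 5 kb at 17.3% (interval 16.0 to 18.8) against 21.3% (20.9 to 21.8). Of siNC regions with at most 9 others within 500 kb, the sparsest of 5 classes, 9.84% were siNC-only (interval 9.16 to 10.5), against 7.24% in the densest class with 24 or more (6.63 to 7.89). Pileup moved with density, with a median of 52 in the sparsest class and 65 in the densest. In the quartile of siNC regions with the lowest fold, up to 4.21, the siNC-only share was 24.3% in the sparsest class (interval 22.2 to 26.6) and 14.3% in the densest (12.8 to 15.9). In the next quartile it was 12.1% in the sparsest and 5.81% in the densest, and in the third 6.46% in the sparsest and 4.29% in the densest. In the quartile of highest fold the shares were 1.53% in the sparsest and 1.55% in the densest. A split by pileup, added after the split by fold had been planned, gave another picture. Among siNC regions with pileups of 11 to 34, the siNC-only share was 31.5% in the sparsest class and 25.8% in the densest. With pileups of 35 to 59 it was the other way round, 2.73% in the sparsest (interval 2.08 to 3.52) and 4.46% in the densest (3.48 to 5.63). With 60 to 93 it was 0 of 1872 in the sparsest, whose interval reaches 0.197%, and 8 of 1530 in the densest (0.523%, interval 0.226 to 1.03). From a pileup of 94 it was 0.0838% in the sparsest and 0.190% in the densest, with overlapping intervals. The siNC-only share was thus higher in the sparsest class in 3 of 4 fold quartiles, with overlapping intervals in the third. By pileup it was higher in the densest class in 3 of 4 quartiles, but these held far fewer siNC-only regions. At pileups of 11 to 34 the sparsest and densest classes held 657 and 407. At 35 to 59 they held 58 and 67, with overlapping intervals.

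The nearest siNC neighbours of siNC-only regions were called somewhat less often in knockdown lists than those of other siNC regions. The nearest siNC region to a siNC-only region was called in all 5 knockdown lists in 29.2% of cases (interval 27.6 to 30.9), against 33.7% for the other siNC regions (33.2 to 34.2), and was itself siNC-only in 9.37% (8.33 to 10.5) against 7.48% (7.20 to 7.77). Along the chromosomes, the next siNC region was siNC-only after 8.89% of siNC-only regions (interval 7.87 to 9.99) and after 7.95% of the others (7.66 to 8.24), intervals that overlap. Of the runs of consecutive siNC-only regions, 2397 were of a single region, 207 of 2, 18 of 3, 3 of 4 and 1 of 5. With 8.02% of siNC regions in the set, most neighbours of any siNC region lie outside it, and nothing is read from the number of single regions. The run of 5 covered chr7:148765096-148892719, 127624 bp with siNC folds of 3.94 to 5.52, and the knockdown peak nearest to one of its regions was a siMBD3 peak 1629 bp away. By windows of 1 Mb, the most siNC-only regions in a window was 7, reached on chromosome 19 from 11000001 (7 of 26 siNC regions), chromosome 5 from 140000001 (7 of 42) and chromosome 8 from 86000001 (7 of 35). In each of these windows most siNC regions were called in at least 1 knockdown list.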

How the data were processed

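The data were 6 narrowPeak lists deposited by the authors, 1 per condition, whose names give 3 pooled replicates and treatment against control. The submitters' processing notes name MACS2 2.1.2, Bowtie2 2.3.4 and the hg19 build, among other tools, with no role. Settings, duplicate filters and peak thresholds are not given in the sources used here. Besides positions, the deposited columns hold the fold at the summit, a linear ratio, with −log10 values of p and q, the summit offset and a display score that was not used. The smallest −log10 q was 1.30.

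Lines with the same start and end were counted as 1 peak with the summit of highest fold, and a region carries its strongest siNC summit. Fold and p together fix the fragments at a summit and the background there: fold was read as their ratio after adding 1 to each, and p as the Poisson probability of more fragments. A whole pileup matched p within 0.01% for 100% of peaks. Chances of a call are binomial probabilities for fragments kept at the ratio of the lists' lowest backgrounds. The code for the solution, the rule and the thinning was checked on simulated data. The simulated thinning used the same model, so it did not test the fit to these libraries. Python 3.11.15, numpy 2.4.6, scipy 1.17.1, pandas 2.3.3 and bedtools 2.31.1 were used.

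Members and measures were chosen with earlier results of these data known. Named regions were the 12 of highest fold, 5 of highest q, 5 widest, 5 closest to a knockdown peak, 3 of lowest −log10 q, 5 just outside, the longest run and the 3 fullest 1 Mb windows; the leading ones are printed. The ranking of regions by lowest chance, the regions over 100 fragments, the background classes and the density split by pileup were added after values were seen. Sequence, motif and gene comparisons were not run, because a genome of hg19 was not used here.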

Additional observations from a re-analysis of the deposited data

Results flagged for a closer look

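On contigs other than chromosomes 1 to 22 and X, which the report leaves out, 25 of 563 siNC regions were siNC-only (4.44%, interval 2.89 to 6.49). They are named because they lie in data that the comparisons do not use.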

How the results depend on the processing

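The number of siNC-only regions stayed within 1.5 times of 2882 under 10 of 13 alternatives. It was 730 (2.57% of siNC regions, median fold 5.50) with −log10 q of at least 10 required of siNC alone, 616 (2.44%, fold 5.89) in lists of equal length, which reduce the siNC list most, and 4785 (13.3%, fold 4.26) without the siCHD5 list. A similar count did not mean the same regions. When peaks under a −log10 q of 5 were dropped everywhere, 1966 of 2975 siNC-only regions were among the 2882. The share was then 8.91%, the median fold 4.54 and the median width 229 bp. When peaks under 10 were dropped, these values were 11.7%, 5.38 and 262 bp. Of 3330 regions, 730 were then among the 2882, since knockdown peaks under the threshold drop out too. The share was 7.49% with no knockdown peak within 1 kb, 8.88% (fold 4.02) with no knockdown summit within 100 bp, and 9.91%, 8.64%, 9.20% and 9.01% without siCHD3, siCHD4, siMBD2 and siMBD3. Merging over 500 bp and all contigs left each value within its interval. Near knockdown peaks lay 3.23% within 500 bp, 22.6% within 5 kb, and 3.53% within 1 kb at −log10 q of at least 5. The sparsest neighbour class held 24.8% of siNC-only regions and 20.3% of all siNC regions. These shares were 26.8% and 21.6% with a 100 kb window, and 29.1% and 24.2% at −log10 q of at least 5. Regions of 1 knockdown list at −log10 q of at least 5, at least 10 and equal length numbered 2987, 1750 and 2692 in siCHD3 and 328, 107 and 2410 in siCHD4. For siMBD2 they numbered 317 and 110, and for siMBD3 394 and 77, at the q thresholds; siCHD5 had 807 at equal length. Where no construction is named, the cause was not tested. No paired analysis was possible because replicates were pooled before peaks were called. The coverage of the knockdown lists was lower than that of siNC, and its part in the missing calls was not tested.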
